A study of Mus musculus with 6 samples.

Results

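The cytosolic ribosomal protein genes encode the proteins of the ribosome, the machine that translates mRNA in the cytoplasm. They were taken from the deposited table as the rows typed protein_coding whose name is Rps or Rpl with a number (and an optional a, l, x or y), Rplp0, Rplp1, Rplp2 or Rpsa. This gave 77 of the 15553 listed genes, 31 of the small and 46 of the large subunit. All 77 passed the filter on low values, at least 1 RPKM (reads per kilobase of gene, scaled by library size) in at least 3 of the 6 libraries. RNA had been sequenced from sorted bone marrow stem cells of C57BL/6 mice aged 6-8 weeks, in 3 libraries labelled Yy1 knockout (genotype Yy1f/f;Mx1-Cre) and 3 labelled wild type (genotype Mx1-Cre). Both genotypes carried Mx1-Cre, a recombinase under an interferon-inducible promoter that is active in many cell types and not in stem cells alone. The labels place the cells in a gate negative for lineage markers and CD48 and positive for Sca1 and c-Kit, but give CD150 as positive in the source field and as both positive and negative in the protocol. They do not say whether each library came from its own mouse, so p-values measure the spread between these libraries, which may be technical.

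In a eukaryotic ribosome the small subunit reads the mRNA and the large subunit joins the amino acids, and nearly every ribosomal protein is present once per ribosome. Their mRNAs are abundant, and many begin with a cytosine followed by a run of pyrimidines, the 5′ terminal oligopyrimidine (TOP) tract, through which the kinase mTOR controls their translation. Blood stem cells are known for a low rate of protein synthesis, and inherited shortage of single ribosomal proteins causes anaemia in humans. YY1, the zinc-finger factor deleted here, binds a short motif that occurs in many ribosomal protein promoters. In bulk RNA, fewer cells of a type and less RNA per cell cannot be told apart.

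Yy1 itself stood at 36.2, 16.6 and 28.5 RPKM in the knockout libraries, against 31.6, 42.3 and 52.1 RPKM in wild type. The library labelled knockout replicate 1 lay inside the wild-type range, and limma (Benjamini-Hochberg over all genes tested) gave an adjusted p of 0.680. Reads in listed genes numbered 19473177 to 21757041 in knockout and 15102982 to 18460012 in wild type. The 12 stem cell markers were all listed, 10 of them below 0 on the log2 fold change scale. Hlf stood at 86.7 to 93.4 RPKM in knockout and 126 to 144 RPKM in wild type. Slamf1, which encodes CD150, lay the other way at 3.77, 3.89 and 5.96 RPKM in knockout and 2.21, 2.88 and 3.90 RPKM in wild type, with overlap. The summed level of the 12 was 462 to 489 RPKM in knockout and 634 to 711 RPKM in wild type. Of the markers of other blood cells, 7 of 13 erythroid, 7 of 8 B cell, 4 of 7 T and NK cell and 3 of 8 monocyte markers were not listed or at 0 throughout. Others had a level: the monocyte marker Lyz2 stood at 67.5, 66.9 and 95.2 RPKM in knockout and 80.0, 93.6 and 121 RPKM in wild type. The B cell marker Cd79b ran from 9.15 to 28.6 RPKM over the 6 libraries, and Nkg7, of the T and NK cell list, from 3.99 to 15.3 RPKM. Of the 4 erythroid markers tested 2 lay below 0 and 2 above. Hbb-bs, an adult beta globin, was separated upward, with 28.8, 15.6 and 78.8 RPKM in knockout and 3.50, 14.4 and 15.0 RPKM in wild type. Car2 was separated downward, with 149, 142 and 124 RPKM in knockout and 188, 165 and 200 RPKM in wild type. Hbb-bt overlapped, at a log2 fold change of -0.05 (SE 0.51). Of the 9 megakaryocyte markers tested 8 lay above 0 with a median of 0.73, and Gp9, Pf4 and Itga2b were among those separated between genotypes, all 3 upward. Gp9 stood at 8.54, 6.03 and 7.79 RPKM in knockout and 1.84, 2.75 and 1.61 RPKM in wild type. The 10 listed megakaryocyte markers summed to 192, 125 and 142 RPKM in knockout and 167, 175 and 147 RPKM in wild type, and overlapped. None of these markers was called. The 9 listed granulocyte markers summed to 35.8, 307 and 56.5 RPKM in knockout and 70.7, 174 and 17.7 RPKM in wild type. Wild type replicate 3 stood apart with 1991 genes listed at 0, against 373 to 1099 in the other libraries. The part of these markers in the results below was not tested.

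Promoter windows, from 250 bases before to 50 bases after an annotated RefSeq start (GRCm38.p6), were at hand for 57 of the 77 genes. The YY1 motif AANATGGC, or GCCATNTT where it lies on the other strand, occurred in a window of 11 of these 57 genes (19.3%), against 7.46% of the 17492 protein-coding genes with a window. The match nearest to an annotated start lay within 100 bases of it in 9 of the 11, and those sequences are shown because they place the motif of the deleted factor beside the start. Each is 30 bases long, written 5′ to 3′ in the direction of transcription, with the motif in capitals.
Rps15a (chr7:118116134-118116163, minus strand): actctctttctGCCATCTTccctcgccggt
Rpl35a (chr16:33056479-33056508, plus strand): ttcctctttccGCCATCTTggcgcctgtgg
Rpl13a (chr7:45128699-45128728, minus strand): ggcggctgccgAAGATGGCggaggggcagg
Rpl28 (chr7:4792919-4792948, plus strand): ggaaatgcgttGCCATTTTaaaggtgtcgt
Rpl34 (chr3:130730422-130730451, minus strand): cgcttccgtacAACATGGCggcgcgctcgc
Rps19 (chr7:24884510-24884539, plus strand): gtggagatgaaGCCATATTcgccctcagaa
Rps28 (chr17:33824616-33824645, minus strand): gagtagcggacGCCATATTccttccgctcc
Rps27 (chr3:90213704-90213733, minus strand): aagaccttccgAAGATGGCgaagcaacacg
Rpl24 (chr16:55966167-55966196, plus strand): ctggaggaaatAAAATGGCacagaacccaa
The motif begins 5 bases before the start in Rps15a and 97 bases before it in Rpl24, and it lies inside the transcript in Rpl35a and Rpl13a. The other holders, Rpl22 and Rpl10, have it 154 and 220 bases before the start. Holders of the motif included the gene with the highest log2 fold change of all members (Rpl28) and one of the lowest (Rpl24). The median log2 fold change was -0.11 over the 11 genes with the motif, 6 of them below 0. It was -0.07 over the 46 genes without it, 27 of them below 0. A match is a description of these letters and not evidence of binding.

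A TOP-like tract, here a C followed by at least 4 pyrimidines and beginning within 10 bases of an annotated start on the transcribed strand, occurred in 35 of the 57 genes (61.4%), against 34.9% of the coding genes. The 5 with the highest mean level are shown with the tract in capitals, since this is the feature the family is best known for.
Rps24 (chr14:24490668-24490697, plus strand): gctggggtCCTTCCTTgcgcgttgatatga
Rps7 (chr12:28635934-28635963, minus strand): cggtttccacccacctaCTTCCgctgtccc
Rps9 (chr7:3704031-3704060, plus strand): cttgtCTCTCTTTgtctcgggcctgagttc
Rpl14 (chr9:120571507-120571536, plus strand): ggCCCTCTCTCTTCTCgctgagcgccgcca
Rps6 (chr4:86857348-86857377, minus strand): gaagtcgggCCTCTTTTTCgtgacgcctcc
The tract is 14 bases long in Rpl14, 10 in Rps6, 8 in Rps24 and Rps9, and 5 in Rps7. The median log2 fold change was -0.03 in the 35 genes with a tract, 18 of them below 0, and -0.19 in the 22 without one. Rps24 stood at 224, 214 and 348 RPKM in knockout and 268, 258 and 394 RPKM in wild type, and Rps6, the phosphorylated substrate of S6 kinase, stood at 222, 151 and 223 RPKM in knockout and 216, 155 and 249 RPKM in wild type. In both genes the genotypes overlapped.

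The levels listed for the 77 gene rows were far from equal, although their proteins are used in near equal numbers. These levels do not settle the amount of RNA per gene, since reads can stand in rows of pseudogenes named after it. Rpl31, for example, was listed at a mean of 21.8 RPKM, and its pseudogene rows summed to 1428 RPKM. RPKM also divides by gene length, and the exonic lengths in GENCODE M21 are 383 (Rpl36) to 6270 bases (Rps15a) here. Multiplied by these lengths, the values gave whole reads in all 6 libraries for 44 of the 77 members. Rpl36 and Rps15a were not among them, so the lengths behind the deposited values may differ. Mean RPKM over the 6 libraries ran from 948 for Rpl4 to 3.90 for Rpl27, a ratio of 243. There were 33 genes at 100 RPKM or more and 6 under 10 RPKM, and the highest 10 genes held 46.6% of the summed level. In the large subunit Rpl4, Rpl8, Rpl32 and Rplp1 were among the 5 highest genes. Rpl4, whose protein lines the exit tunnel of the growing peptide, stood at 762, 773 and 1129 RPKM in knockout and 932, 916 and 1173 RPKM in wild type. Rpl8, whose protein lies near the site of peptide bond formation, stood at 463, 479 and 588 RPKM in knockout and 422, 468 and 674 RPKM in wild type. Replicate 3 was the highest library of its genotype for both genes, and the genotypes overlapped. Rpl32 stood at 365, 281 and 443 RPKM in knockout and 445, 365 and 656 RPKM in wild type, with overlap through wild type replicate 2.

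In the small subunit Rps4x, Rps3, Rps24 and Rps7 were among the 5 highest genes. Rps3, whose protein sits where mRNA enters the ribosome, stood at 380, 423 and 531 RPKM in knockout and 359, 430 and 657 RPKM in wild type. Rps7 stood at 193, 269 and 383 RPKM in knockout and 244, 238 and 325 RPKM in wild type. Overlap of the genotypes was seen in both. At the low end, Rpl27 stood at 2.25, 5.99 and 5.07 RPKM in knockout and 4.69, 4.45 and 0.969 RPKM in wild type, and Rps28 at 12.6, 5.74 and 9.69 RPKM in knockout and 8.14, 13.8 and 7.90 RPKM in wild type. Such genes rest on few reads: the smallest number behind any value was 3 reads (Rpl24 in knockout replicate 1) and the largest 46501 (Rps3 in knockout replicate 3). Level showed almost no relation to GENCODE M21 exonic length across the 77 genes (Spearman rho -0.07, a description across genes that share libraries).

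**Figure D1:**
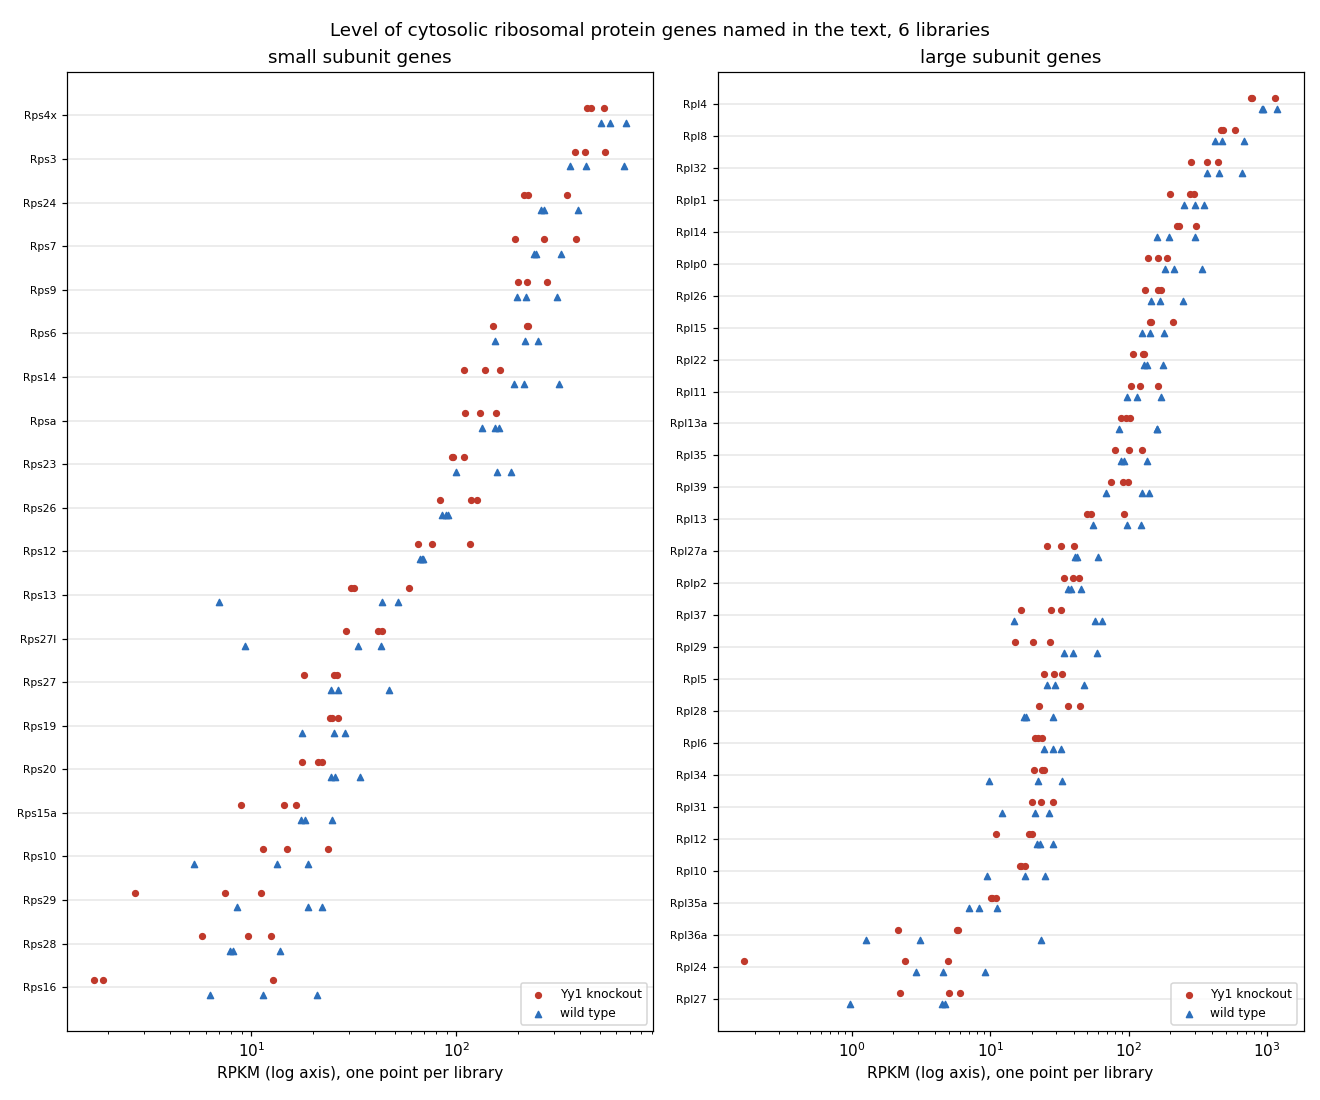
RPKM (log axis) of the small and large subunit genes named in the text, one point per library, with Yy1 knockout as circles and wild type as triangles and genes ordered by mean level. Levels run from 948 RPKM for Rpl4 to 3.90 RPKM for Rpl27, and among the low genes Rpl36a has libraries from 23.4 to 1.27 RPKM.

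The family as a whole differed more between libraries of 1 genotype than between genotypes. Its summed level was 8570, 8281 and 11126 RPKM in knockout and 9627, 8971 and 12524 RPKM in wild type. The mean was 9326 ± 1566 RPKM in knockout and 10374 ± 1891 RPKM in wild type (SD, n = 3 each), a difference smaller than either SD. As a share of all listed RPKM the family held 2.25%, 2.21% and 2.73% in knockout and 2.31%, 2.25% and 2.80% in wild type. Replicate 3 was the highest of both genotypes in each of these measures, and the genotypes overlapped.

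The same ordering was seen gene by gene. Measured from each gene's wild-type mean, the median log2 deviation was -0.23, -0.25 and 0.09 in the knockout libraries and -0.05, -0.15 and 0.23 in wild type. Wild type replicate 3 was the highest library for 35 of the 77 genes, and knockout replicate 3 for 18. Knockout replicates 1 and 2 were the lowest library for 20 and 22 genes. The median coefficient of variation was 20.5% in knockout and 25.2% in wild type, against 27.8% in knockout and 35.0% in wild type over all genes tested.

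**Figure D2:**
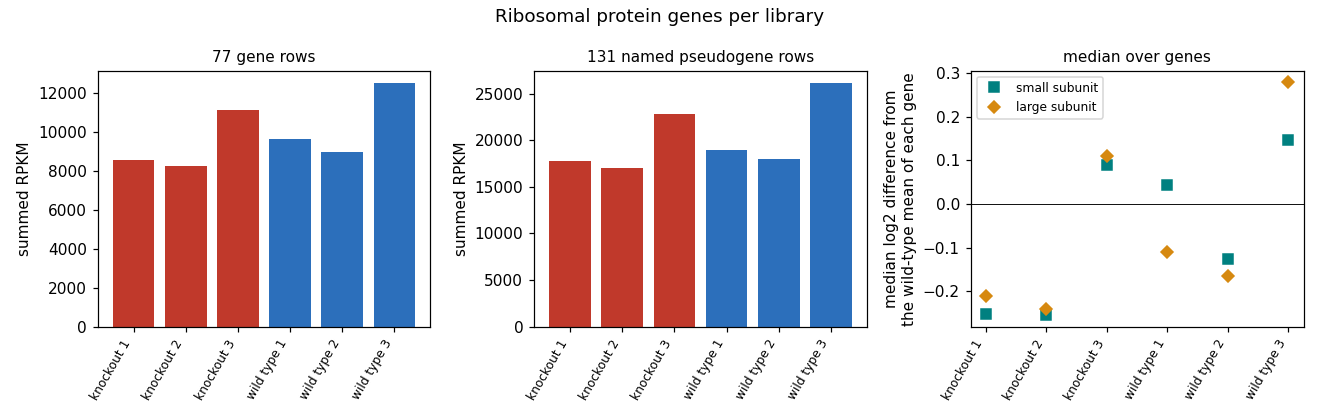
Summed RPKM of the 77 ribosomal protein genes (left) and of 131 pseudogene rows named after them (middle) in each library, and the median log2 difference of small and large subunit genes from their wild-type mean (right). Replicate 3 of each genotype is the highest in all 3 panels: the summed gene level is 11126 RPKM in knockout replicate 3 and 12524 RPKM in wild type replicate 3.

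None of the 77 genes passed the test between genotypes, which was limma on log2(RPKM + 0.5) with Benjamini-Hochberg adjustment over all 13179 genes tested. The smallest adjusted p of a member was 0.475 in limma, and 0 (0.0%) of all genes tested came under the threshold of 0.05. Unadjusted p-values under 0.05 belonged to 2 members (2.60%), Rpl29 and Rps14, both lower in knockout, where 7.79% of all genes tested fell under it, 3.06% lower and 4.73% higher. The typical standard error of a member's log2 fold change was 0.26, which limits the size of change that this design could detect.

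The log2 fold changes leaned slightly below 0. Of the 77 genes 49 lay below 0 and 28 above, with a median of -0.11 and a middle range of -0.33 to 0.07, where 48.1% of all genes tested lay below 0 and their median was 0.02. This lean depends on the scaling and on single libraries: with each library rescaled to a fixed sum, 38 of 77 lay below 0 and the median was 0.01, while the median of all genes moved to 0.13. Relative to the median of all genes, the family's median was -0.13 with either scaling, and -0.05 after quantile normalization. Leaving out wild type replicate 3 gave a median of -0.02 with 41 genes below 0, and leaving out knockout replicate 1 gave -0.02 with 42. Without knockout replicate 2 the median was -0.05 with 42 genes below 0. Leaving out knockout replicate 3 gave -0.24 with 60 genes below 0, and leaving out wild type replicate 2 gave -0.21 with 57.

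**Figure D3:**
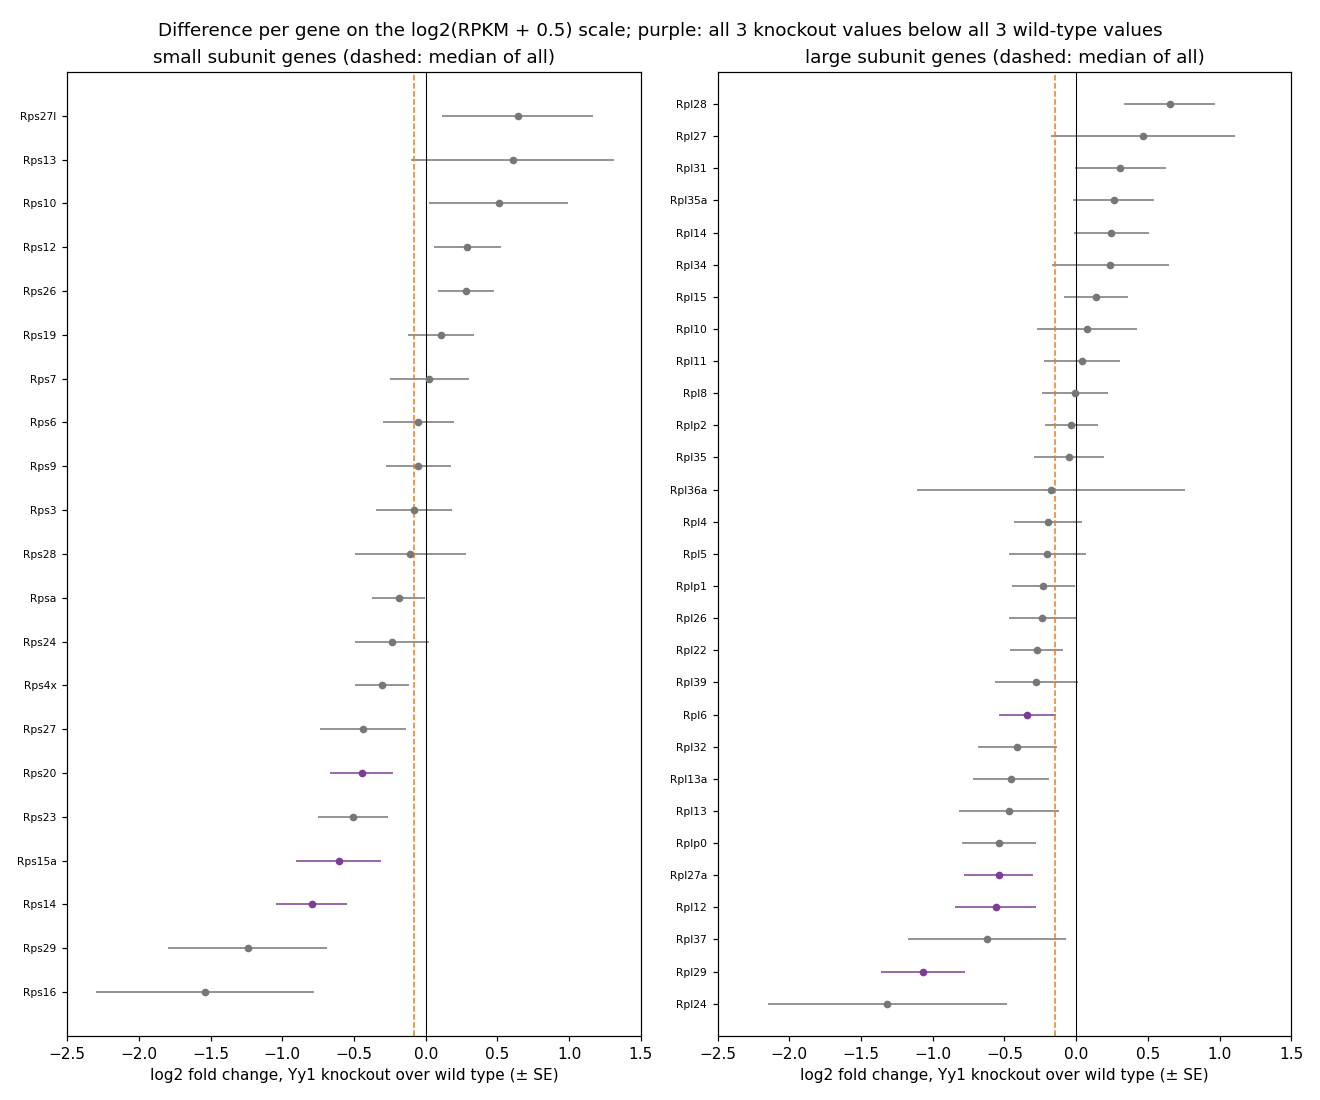
Log2 fold change (Yy1 knockout over wild type) with its standard error for the small and large subunit genes named in the text, on the log2(RPKM + 0.5) scale, with the median over all genes of each subunit as a dashed line. The 7 purple genes have all knockout values below all wild-type values, and the medians of -0.08 (small) and -0.15 (large) become 0.04 and -0.03 when libraries are rescaled to a fixed sum.

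In 7 genes the 3 knockout values all lay below the 3 wild-type values, namely Rpl29, Rps14, Rps15a, Rpl12, Rpl27a, Rps20 and Rpl6. That is 9.09% of the members, beside 6.87% of all genes tested with such a separation downward. No member was separated upward, beside 7.63% of all genes, and in either direction the background was 14.5%. Adjusted p-values in limma were 0.475 to 0.741 for the 7. Coordinates below are those of GENCODE M21 on GRCm38.

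Rpl29 (chr9:106429454-106431568, plus strand) encodes a large subunit protein without which mice are viable but small. It stood at 15.1, 20.5 and 27.1 RPKM in knockout and 39.8, 34.2 and 59.0 RPKM in wild type. The highest knockout library was below the lowest wild-type one, and the means were 20.9 ± 6.04 RPKM in knockout and 44.3 ± 13.0 RPKM in wild type (SD, n = 3 each). The log2 fold change was -1.07 (SE 0.29), with an unadjusted p of 0.00729 and an adjusted p of 0.475 in limma. Across the 16 alternatives the log2 fold change of Rpl29 ran from -1.27 to -0.84, the unadjusted p was under 0.05 in 16 and the adjusted p was 0.369 to 0.896.

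Rps14 (chr18:60747098-60778546, plus strand) encodes a small subunit protein whose human counterpart lies in the region deleted in the 5q- syndrome, a bone marrow disorder with anaemia. It stood at 164, 138 and 109 RPKM in knockout and 213, 192 and 318 RPKM in wild type. The genotypes did not overlap, with means of 137 ± 27.3 RPKM in knockout and 241 ± 67.3 RPKM in wild type (SD, n = 3 each). Rps14 had a log2 fold change of -0.80 (SE 0.25), an unadjusted p of 0.0128 and an adjusted p of 0.551 in limma. Its unadjusted p was likewise under 0.05 in 16 of 16 alternatives, with adjusted p-values of 0.290 to 0.896. Rpl29 and Rps14 were the only members under 0.05 in the main fit, and the alternatives refit the same libraries, so these counts are not independent support. Neither Rpl29 nor Rps14 has a pseudogene row named after it, so summing with such rows left their log2 fold changes as they were.

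The other 5 separated genes had smaller differences and unadjusted p-values above 0.05. Rps15a (chr7:118104372-118116188, minus strand), one of the motif holders shown above, stood at 8.91, 14.4 and 16.6 RPKM in knockout and 24.6, 18.2 and 17.5 RPKM in wild type, a log2 fold change of -0.61. Rpl12 (chr2:32961559-32965345, plus strand), whose protein sits at the base of the P stalk, stood at 11.0, 20.2 and 19.0 RPKM in knockout and 22.7, 21.8 and 28.2 RPKM in wild type, at -0.56. In both genes the gap between the closest libraries of the genotypes was small. Rpl27a (chr7:109519147-109522367, plus strand) stood at 25.7, 32.4 and 40.1 RPKM in knockout and 42.3, 41.0 and 60.2 RPKM in wild type, at -0.54. Here knockout replicate 3 nearly reached wild type replicate 2. Rps20 (chr4:3831334-3835665, minus strand), whose protein lies in the head of the small subunit, stood at 22.1, 17.7 and 21.1 RPKM in knockout and 34.1, 24.4 and 25.7 RPKM in wild type, at -0.45. Rpl6 (chr5:121204481-121209241, plus strand) stood at 23.5, 22.0 and 21.0 RPKM in knockout and 28.4, 32.5 and 24.2 RPKM in wild type, at -0.34.

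**Figure D4:**
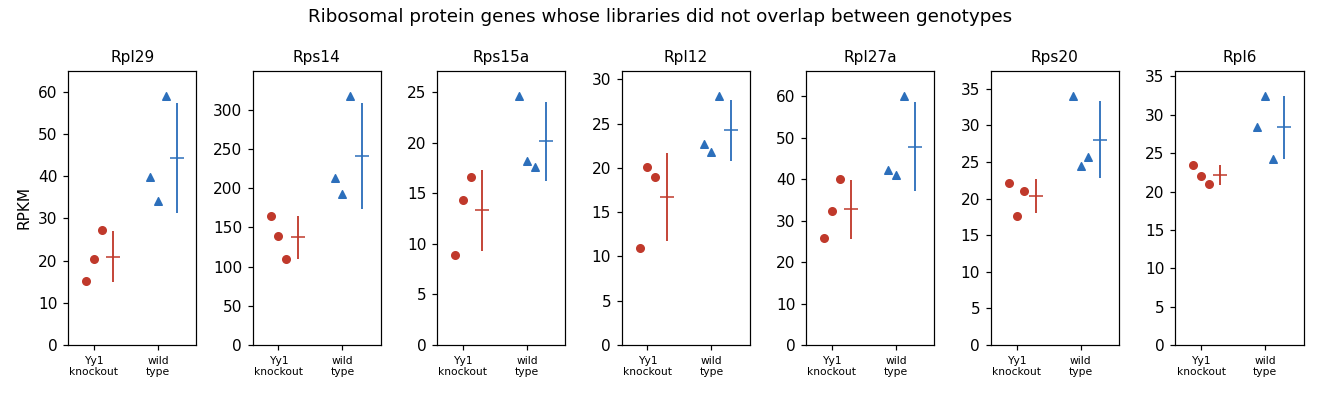
RPKM of the 7 genes whose libraries did not overlap between genotypes, with each library as a point and the mean ± SD (n = 3) beside it, Yy1 knockout left of wild type. In proportion to level the gap is widest for Rpl29, with 27.1 RPKM in the highest knockout library and 34.2 RPKM in the lowest wild-type library, and none of the 7 passed the test.

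The 3 most negative log2 fold changes belonged to genes with few reads and wide scatter. Rps16 was at -1.54 (SE 0.76), with 1.71, 12.8 and 1.90 RPKM in knockout and 6.33, 20.8 and 11.4 RPKM in wild type. Rpl24, whose protein helps bridge the subunits, was at -1.32 (SE 0.83), with 0.167, 2.44 and 4.92 RPKM in knockout and 9.17, 4.52 and 2.89 RPKM in wild type. The single low value of 0.167 RPKM rests on 3 reads. Rps29 was at -1.24 (SE 0.56), with 7.46, 2.72 and 11.2 RPKM in knockout and 22.2, 8.51 and 18.8 RPKM in wild type. The genotypes overlapped in all 3 genes.

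Among better covered genes, Rplp0 and Rps23 overlapped between genotypes through 1 wild-type library. Rplp0 stood at 188, 138 and 162 RPKM in knockout and 212, 181 and 337 RPKM in wild type, a log2 fold change of -0.54 (SE 0.26). Rps23, whose protein reaches into the decoding centre, stood at 109, 95.3 and 96.5 RPKM in knockout and 185, 99.4 and 158 RPKM in wild type, at -0.51 (SE 0.24). Wild type replicate 2 was within the knockout range for both. Rpl37, at -0.62 (SE 0.55), and Rpl13, at -0.47 (SE 0.35), also overlapped through wild type replicate 2. Rpl37 stood at 32.1, 16.6 and 27.5 RPKM in knockout and 56.8, 14.8 and 64.0 RPKM in wild type. Rpl13 stood at 53.2, 49.9 and 92.6 RPKM in knockout and 97.2, 55.3 and 122 RPKM in wild type.

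In the other direction no gene was separated, and wild type replicate 3 set several of the values. Rpl28 had the highest log2 fold change, 0.65 (SE 0.32), with 22.4, 36.3 and 44.5 RPKM in knockout and 17.5, 18.2 and 28.6 RPKM in wild type, and limma gave an adjusted p of 0.677. Rps13 was at 0.61 (SE 0.71), with 59.0, 31.8 and 30.8 RPKM in knockout and 51.7, 43.3 and 6.97 RPKM in wild type. Rps10 was at 0.51 (SE 0.49), with 23.6, 11.4 and 14.9 RPKM in knockout and 13.3, 18.8 and 5.27 RPKM in wild type. For Rps13 and Rps10, as for Rpl27 at 0.47 (SE 0.64), the lowest value of all was wild type replicate 3. Rpl31 was at 0.31 (SE 0.32), Rps12 at 0.29 (SE 0.23) and Rps26 at 0.28 (SE 0.19). Rps12 stood at 65.1, 75.8 and 117 RPKM in knockout and 66.8, 68.7 and 68.3 RPKM in wild type. Rps26, whose protein contacts the mRNA at its exit, stood at 117, 83.6 and 126 RPKM in knockout and 91.1, 88.9 and 85.2 RPKM in wild type. In both, a knockout library lay below every wild-type library.

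The balance of small and large subunit genes differed between genotypes by less than the spread between libraries. The median log2 fold change was -0.08 over the 31 small subunit genes, 20 of them below 0, and -0.15 over the 46 large subunit genes, 29 of them below 0, or 0.04 (small) and -0.03 (large) with libraries rescaled to a fixed sum. The summed level of small over large subunit genes was 0.862, 0.889 and 0.850 in knockout and 0.857, 0.901 and 0.816 in wild type. As mean log2 levels, small exceeded large by 0.64, 0.48 and 0.41 in knockout and by 0.54, 0.68 and 0.35 in wild type. The genotypes differed in this balance by -0.01, against a spread between libraries of 0.15 (SD on the log2 scale). The median level of the gene rows was higher in small subunit genes, 98.7 RPKM, than in large subunit genes, 39.9 RPKM. These medians leave out reads in pseudogene rows.

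Groups by role gave no called gene. The P stalk is the flexible arm that recruits translation factors, built by Rplp0 with the acidic proteins Rplp1 and Rplp2. All 3 lay below 0, with a median of -0.23: Rplp1 stood at 277, 198 and 298 RPKM in knockout and 348, 251 and 302 RPKM in wild type, and Rplp2 at 34.2, 39.3 and 43.6 RPKM in knockout and 36.5, 38.1 and 45.3 RPKM in wild type. Libraries of the genotypes overlapped for each of the 3. Rplp2, at -0.03 (SE 0.19), had nearly the same level in both genotypes, while Rplp1 was at -0.23 (SE 0.22).

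Rpl5 and Rpl11 bind 5S rRNA, and when ribosome assembly fails they bind the p53 regulator Mdm2. Rpl5 stood at 28.9, 24.6 and 32.7 RPKM in knockout and 25.6, 29.4 and 47.1 RPKM in wild type. Rpl11 stood at 121, 104 and 163 RPKM in knockout and 96.5, 114 and 170 RPKM in wild type. Neither differed beyond its spread, with log2 fold changes of -0.20 (SE 0.27) for Rpl5 and 0.04 (SE 0.26) for Rpl11. Of the 10 genes whose proteins line or surround the exit tunnel, 9 lay below 0, with a median of -0.23 and none called.

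The genes whose human counterparts are mutated in Diamond-Blackfan anaemia, a failure of red cell production, numbered 17 with Rps14. Of these 8 lay below 0 and 9 above, with a median of 0.03. Rps19, the member most often mutated in patients, stood at 24.7, 26.6 and 24.4 RPKM in knockout and 28.6, 17.7 and 25.2 RPKM in wild type. Its log2 fold change was 0.11 (SE 0.23), and the knockout values lay inside the wild-type range. Rpl35a stood at 10.3, 11.0 and 10.2 RPKM in knockout and 6.98, 8.34 and 11.1 RPKM in wild type. Rpl26, Rpl15 and Rpl35 were at -0.24 (SE 0.23), 0.14 (SE 0.22) and -0.05 (SE 0.24), and overlapped as well. Other genes of this group, Rps14, Rps29, Rps26, Rps10, Rpl31, Rpl27, Rps24, Rps7, Rps28, Rpl5 and Rpl11, are described above, and Rps14 was the only one of the 17 whose genotypes did not overlap.

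The X-linked genes Rps4x, Rpl10, Rpl36a and Rpl39 had a median of -0.23, with 3 of 4 below 0. Rps4x stood at 434, 453 and 522 RPKM in knockout and 563, 510 and 676 RPKM in wild type. A single overlap, of knockout replicate 3 with wild type replicate 2, kept it from separation, and its log2 fold change was -0.31 (SE 0.19). Rpl10, whose protein completes the large subunit before it can join the small one, stood at 16.6, 17.9 and 16.5 RPKM in knockout and 9.50, 24.7 and 17.7 RPKM in wild type. Rpl39 stood at 90.2, 74.7 and 99.1 RPKM in knockout and 125, 68.0 and 140 RPKM in wild type. Rpl36a had the largest standard error of the 77 genes, with 2.15, 5.77 and 5.88 RPKM in knockout and 23.4, 3.11 and 1.27 RPKM in wild type, and that error of 0.93 exceeded its log2 fold change of -0.17.

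Rps27l, a paralog of Rps27 and a p53 target gene, was the only paralog among the members. It stood at 29.0, 41.4 and 43.3 RPKM in knockout and 43.0, 33.0 and 9.28 RPKM in wild type, with a log2 fold change of 0.64 (SE 0.53). Rps27 stood at 26.1, 25.4 and 18.1 RPKM in knockout and 47.0, 24.5 and 26.4 RPKM in wild type, at -0.44 (SE 0.30). Both overlapped between genotypes, and the value of Rps27l rests on the low wild type replicate 3.

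Many of these genes have processed pseudogenes, intronless copies of near-identical sequence that can share reads with the gene. The table lists 131 pseudogene rows named after 49 of the 77 members. The sources used here do not give how reads matching several places were assigned, so the level of a gene with such rows is uncertain. The pseudogene rows summed to 17826, 16980 and 22833 RPKM in knockout and 18973, 18015 and 26147 RPKM in wild type. In RPKM, which divides reads by row length, that is 2.06 times the summed gene rows in knockout and 2.03 times in wild type. In 38 genes the pseudogene rows exceeded the gene row in RPKM. In recovered reads the order was the reverse. Pseudogene rows held 0.850%, 0.810% and 1.09% of listed reads in knockout and 0.842%, 0.838% and 1.18% in wild type. The gene rows held 1.52%, 1.51% and 2.02% in knockout and 1.63%, 1.58% and 2.19% in wild type. Rpl17-ps10, at a mean of 1167 RPKM, and Rps23-ps2, at 981 RPKM, stood above every member. Rpl36a, listed at 6.93 RPKM, had pseudogene rows that summed to 790 RPKM.

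Summing each gene with its named pseudogene rows, an alternative chosen after seeing the data, changed the sign of the log2 fold change in 16 genes and still gave 0 calls. RPKM values were added without a common length, so a read in a short pseudogene row weighed more than one in a longer gene row. In GENCODE M21 the Rps15a row, for example, has 6270 exonic bases and Rps15a-ps5 has 393. The summed values therefore lean toward the pseudogene rows. The median was then -0.14, with 61 of 77 below 0. Several extreme values moved toward 0 or past it: Rpl28 moved to 0.01, Rps13 to -0.23, Rps10 to -0.18 and Rps16 to -0.44. Rpl24, Rps29 and Rps27l have no such rows, and the range over all members was then -1.32 to 0.64. Rpl12 and Rps15a moved the other way, to -1.25 and -0.92. The row behind Rpl12 is Rpl12-ps1, at 6.35, 5.74 and 6.58 RPKM in knockout and 47.9, 7.48 and 48.9 RPKM in wild type. The 6 pseudogene rows of Rps15a summed to 196, 112 and 134 RPKM in knockout and 328, 226 and 295 RPKM in wild type, with no overlap between genotypes. Of the 28 genes with no such row, 22 (78.6%) lay below 0, against 27 of the 49 with one (55.1%) and 48.1% of all genes tested. Of the 28, 5 were separated downward, against 2 of the 49 and 6.87% of all genes tested. Pseudogenes listed under other names were not looked for, so the 28 genes may still share reads. Rps27, for example, counts among the 28, although a row Rps27rt is listed.

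**Figure D5:**
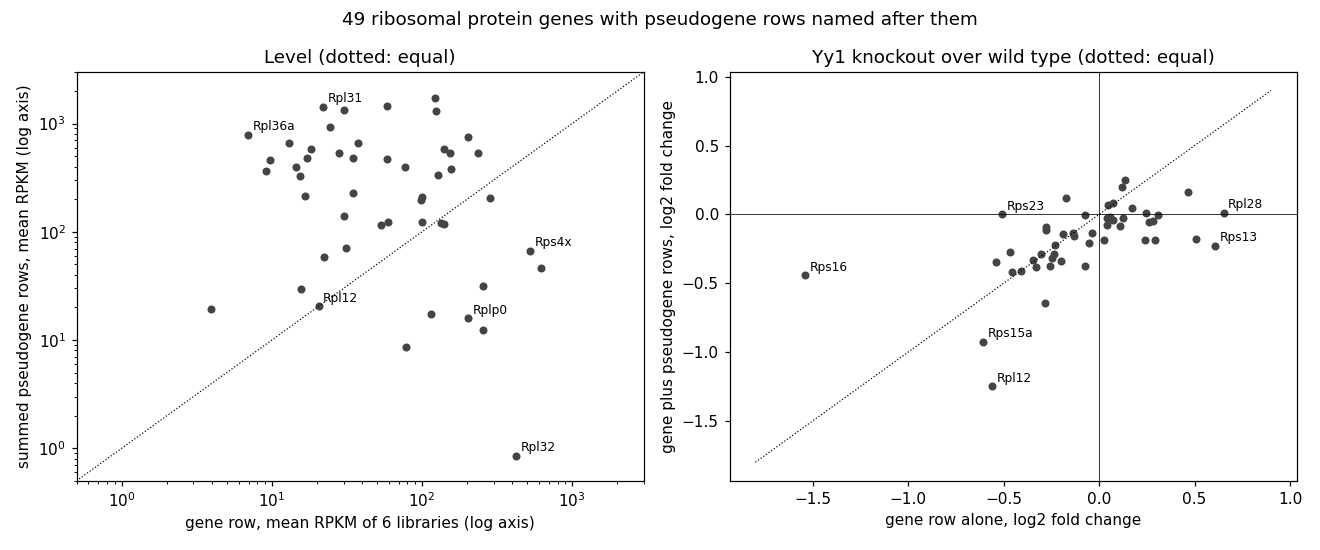
Mean RPKM (log axes) of the gene row and of its summed pseudogene rows for 49 genes (left), and the log2 fold change (Yy1 knockout over wild type) of the gene row alone against gene plus pseudogene rows (right). In 38 genes the pseudogene rows lie above the dotted line of equal level, and Rpl12 and Rps15a move to -1.25 and -0.92 when summed, while Rpl28 and Rps13 move to 0.01 and -0.23.

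Among the 128 pseudogene rows tested, 85 lay below 0 with a median of -0.18, and none was called. Rplp0-ps1 had the smallest p, at 22.4, 32.0 and 25.4 RPKM in knockout and 2.74, 6.39 and 6.38 RPKM in wild type. Its log2 fold change of 2.32 (SE 0.37) had the sign opposite to that of Rplp0, and the limma adjusted p was 0.215. Next came Rps10-ps1, at 75.9, 62.6 and 69.4 RPKM in knockout and 132, 118 and 168 RPKM in wild type, a log2 fold change of -0.99 (SE 0.19). These 2 rows were chosen after their values were seen.

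No member was called by another test. Fitted with limma-voom, the recovered reads gave 6 called genes of 13114 (0.0458%), none of them a member. Its unadjusted p was under 0.05 in 3 members (3.90%), Rplp0, Rpl29 and Rps14, beside 8.15% of all genes. The authors' deposited table called 24 of 15553 genes (0.154%) and no member. At an unadjusted p under 0.05 the authors' deposited table held 8 members (10.4%), beside 8.02% of all genes. All 8 were lower in knockout in the authors' deposited table: Rps14, Rplp0, Rps4x, Rps15a, Rpl13a, Rpl29, Rpl27a and Rpl32. For Rps14, the smallest p of the 8, the authors' deposited table gives -0.80 (log2) with an adjusted p of 0.138.

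Of the 8 listed ribosomal protein genes that the naming rule leaves out, 7 lay below 0 with a median of -0.18. Rps27rt, which carries the name of Rps27, was not counted among the pseudogene rows. It stood at 140, 109 and 105 RPKM in knockout and 128, 223 and 222 RPKM in wild type, a log2 fold change of -0.66 (SE 0.26). Rpl36al was separated, with 37.1, 45.6 and 38.3 RPKM in knockout and 48.2, 45.8 and 62.5 RPKM in wild type. Rpl22l1, the paralog of Rpl22, stood at 50.3, 46.5 and 51.1 RPKM in knockout and 79.0, 49.9 and 48.2 RPKM in wild type. None of the 8 was called.

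The wider translation apparatus was also without a called gene. Of 7 genes listed as elongation factors, Eef1e1 by name only, 5 lay below 0 with a median of -0.23. The smallest p-values were those of Eif5a at 0.37 (SE 0.20), Eef1d at -0.42 (SE 0.26) and Eef1e1 at -0.47 (SE 0.30). Initiation factors lay below 0 in 12 of 28 with a median of 0.05. Eif4a2, an RNA helicase, was separated downward, with 89.5, 96.3 and 82.0 RPKM in knockout and 144, 128 and 103 RPKM in wild type. Eif6, which keeps the subunits apart until the large one is mature, was separated upward, with 18.8, 17.7 and 42.8 RPKM in knockout and 14.2, 13.6 and 13.1 RPKM in wild type. Eif1 was at 0.40 (SE 0.21) and overlapped.

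Of 20 other genes whose mRNAs carry a TOP tract, 10 lay below 0 with a median of -0.004. Npm1, a nucleolar chaperone of ribosome assembly, stood at 274, 275 and 364 RPKM in knockout and 175, 195 and 262 RPKM in wild type. Nap1l1 stood at 99.1, 76.5 and 93.1 RPKM in knockout and 65.4, 67.4 and 74.9 RPKM in wild type. Both were separated upward, and Naca was at -0.35 (SE 0.23) with overlap. Of 11 regulators of TOP translation, 4 lay below 0 with a median of 0.11. Eif4ebp2, a repressor of the cap-binding factor, was separated upward, with 38.9, 31.6 and 29.98 RPKM in knockout and 26.6, 20.6 and 22.8 RPKM in wild type. Larp1, which binds the tract itself, was at 0.35 (SE 0.19) and Rps6kb2 at 0.45 (SE 0.37), and both overlapped.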

How the data were processed

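The deposited table holds, per library, values that behave as RPKM: the header names no unit, but multiplied by the GENCODE M21 exonic length they were whole multiples of 1 step per library, within 0.02 reads, for 11106 of 15465 genes with a length (44 of the 77 members). The authors worked on mm10 with Subread, featureCounts, edgeR and limma, per the submitters' processing notes, with no settings given. The authors' deposited log2 fold changes and p-values are quoted only where named. Reads were recovered from the deposited RPKM and length, and, since the kit amplifies RNA, are not independent molecules.

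Genes with at least 1 RPKM in 3 of 6 libraries were tested with limma 3.58.1 (R 4.3.3), lmFit and eBayes with a variance trend, on log2(RPKM + 0.5), two-sided, Benjamini-Hochberg adjusted over 13179 genes at 0.05. This scale understates the change of low genes. The script was tested on simulated data. With 3 libraries per genotype an exact permutation test cannot go below 0.1. Medians and counts are descriptions without a test. Exonic lengths of the members in GENCODE M21 were 383 to 6270 bases. Reads recovered with them are approximate where the values were not whole multiples. Promoter sequences are from RefSeq (GRCm38.p6), with 20 members not matched.

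The members and gene lists were chosen with earlier results of these data known. Named were the members separated between genotypes, the 12 most negative and 8 most positive log2 fold changes, the 5 highest levels per subunit and the role lists; of other lists, the 3 smallest p-values and separated genes. Some genes the rule names are not reported here, and the plots of levels and of fold changes per gene hold the members named in the text. Alternatives were the pseudocount, the filter, the scaling, the trend, a replicate block, limma-voom, leaving out each library and the sum with pseudogene rows.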

Additional observations from a re-analysis of the deposited data

How the results depend on the processing

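The 5 summary results (members called, the 3 medians and the balance of subunits) were recomputed under 16 alternatives. All 80 values kept their side of the threshold or moved by less than the spread between libraries. That is a wide margin: the spread was 0.19 over all members, 0.16 over small and 0.20 over large subunit genes. The medians themselves were smaller in size, at -0.11, -0.08 and -0.15, so a change of sign could count as kept. The number of members called was 0 in each. Leaving out 1 library moved the median of all members between -0.24 and -0.02, of small subunit genes between -0.24 and -0.02, of large subunit genes between -0.29 and -0.01, and the difference in subunit balance between -0.10 and 0.07. With a fixed sum per library the medians were 0.01 over all members, 0.04 over small and -0.03 over large subunit genes, with quantile normalization -0.06, -0.06 and -0.07, and with limma-voom -0.03, -0.03 and -0.04. Of the single members' values, 1223 stayed within the spread and 7 moved beyond it, all on summing with pseudogene rows: Rpl12 to -1.25, Rps23 to 0.00, Rpl30 to -0.38, Rpl35a to -0.05, Rps26 to -0.04, Rps12 to -0.18 and Rpl28 to 0.01. The replicate block left 0 members called and gave 10 with an unadjusted p under 0.05 (13.0%, beside 7.89% of all genes), against 2 without it (2.60%, beside 7.79%). Over all genes tested, same-numbered libraries deviated together only weakly (correlations of 0.015, 0.059 and 0.047), beside -0.076 to 0.035 for differently numbered ones. No pairing was used in the main fit. These correlations cannot decide whether replicates are paired within this family. Its summed level was lowest in replicate 2 and highest in replicate 3 of both genotypes. Each knockout sum was below that of the same-numbered wild-type library, and a pairing was not tested. Without wild type replicate 2 there were 10 members with an unadjusted p under 0.05 (13.0%, beside 9.08% of all genes). Depth limits the lowest genes most: Rpl24 rests on 3 to 122 reads per library and Rpl27 on 22 to 161.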

Other observations

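Small nucleolar RNAs (snoRNAs), which guide chemical changes of rRNA, lie inside introns of ribosomal protein genes. The table lists 22 snoRNA rows within 13 of the 77 members, of which 19 passed the filter. No snoRNA was called in limma, and their median log2 fold change was 1.08, with 5 of 19 below 0. This median rests on libraries with no reads: of the 22 rows, 6, 1 and 5 were at 0 reads in the knockout libraries and 5, 4 and 15 in wild type, the 15 in wild type replicate 3. Rpl4 hosts 5 of the rows, and Gm22455 within it had 51, 113 and 169 reads in knockout and 180, 2 and 0 reads in wild type.

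The 13 genes of the mitochondrial genome, which are translated by other ribosomes, all had log2 fold changes below 0 (median -0.24), and none was called. The lowest, mt-Co3, stood at 24.6, 17.3 and 19.1 RPKM in knockout and 45.7, 36.8 and 30.6 RPKM in wild type.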
